A study of Mus musculus with 14 samples.

Results

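Thymus RNA on day 6 of estradiol treatment was compared with thymus RNA on day 2 of the same treatment. The comparison took 4 of the 14 arrays of the series, chosen by their labels, 2 from each day. All mice were female C57BL/6 animals whose ovaries were removed at 26 days of age and which were moved to a purified diet free of phytoestrogens before treatment. From 30 days of age the estradiol groups received a daily subcutaneous injection of 125 ng of 17β-estradiol, the principal estrogen of the ovary, dissolved in 0.02 ml of corn oil, and thymus was taken at 32 days of age (day 2) or 36 days of age (day 6). An array read the pooled RNA of 3 mice, and both pools of a group are labelled as independent biological replicates. The same interval with 1500 ppm of genistein in the diet, an isoflavone of soy and a ligand of estrogen receptors, was covered by 4 other arrays without injections and is given where it bears on the estradiol values. Untreated mice were taken at day 0 and were not used. Longer exposure to estradiol, more injections and 4 more days of age therefore cannot be told apart in the estradiol arrays. The same holds for 4 more days since ovary removal and on the purified diet. The added age and time since ovary removal are shared with the genistein arrays, and the estradiol and the injections are not.

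The thymus is the organ in which T cells mature. Most of its cells are thymocytes that carry both CD4 and CD8 and rearrange their receptor genes with the Rag recombinase, and cortical and medullary epithelial cells provide the ligands and the self-antigens on which they are selected. Estrogen is known to shrink the thymus, an effect in which receptors in both thymocytes and stroma have been implicated, and the cortex is the region that loses most cells. Affymetrix arrays of whole thymus give relative RNA levels, so in every result below fewer cells of a type and less RNA per cell cannot be told apart.

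No gene passed the test between day 2 and day 6 of estradiol. Of 13575 probe sets bright enough to be tested, standing for 8217 genes, limma called 0 (0%) at an adjusted p of 0.05, and the smallest adjusted p was 0.188. At an unadjusted p of 0.05 there were 1414 probe sets (10.4%), of which 642 were higher and 772 lower on day 6. More than 2-fold differences on the log2(signal + 16) scale were seen for 14 higher and 27 lower probe sets, and the 2 days did not overlap for 14 and 25 of them. The genistein arrays gave 0 calls and 943 probe sets (6.95%) at an unadjusted p of 0.05 over the same days. The difference between both arms gave 0 calls and 1022 (7.53%). With 2 arrays a group the number of arrays limits the precision, and the median standard error of a log2 change was 0.187. Without day 2 replicate 1 the count was 2, and without day 2 replicate 2 it was also 2, with different genes named at the end. The results are therefore given as levels on each array.

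The spread within groups set this limit unevenly. After all arrays were brought to a 2%-trimmed mean of 150, the 2 day 6 arrays correlated at 0.985 across probe sets and the 2 day 2 arrays at 0.956. The SD between both arrays had a median of 0.0844 log2 units on day 6 and 0.162 on day 2. Day 2 replicate 2 had been deposited 1.49 times above the common scale. Day 2 replicate 1 had a ratio of 3' to 5' Gapdh signal, which rises as RNA breaks down, of 1.27, against 0.928 to 0.950 on the other 3 arrays. With the scale or with this ratio as a term in the model the count of calls was 2 and 0. The labelled tissue matched its markers. Rag1, the recombinase of receptor assembly, read 2962 and 2087 on day 2 and 2210 and 2148 on day 6. Cd8a read 1583 and 1827 on day 2 and 1783 and 1591 on day 6, and Cd4 read 713 and 1091 and then 767 and 666. For none of the 3 did both day 6 arrays lie outside the day 2 range. The estrogen receptors Esr1 and Esr2 and their target Pgr lay below the brightness needed for a test, with mean signals of 9.03, 20.9 and 20.4 on day 2 and 15.2, 13.6 and 15.9 on day 6.

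Since no gene was called, genes were named by smallest p in each direction, 12 higher and 12 lower, represented by their brightest probe set. None of them passed, and all 24 shared a limma adjusted p of 0.299. Their order is a description of these 4 arrays. In all, both day 6 arrays lay above both day 2 arrays for 1673 of 8217 genes (20.4%) and below them for 2125 (25.9%). Ctnnd1 encodes p120 catenin, which holds cadherins at cell junctions, and read 36.6 and 48.0 on day 2 and 102.9 and 113.8 on day 6 (log2 change 1.10 ± 0.215 SE). Its change was 0.70 with a pseudocount of 64. Its day 3 arrays, at 75.1 and 82.8, lay between, and on genistein it read 28.5 to 52.9 throughout. Zfp36l1 encodes a protein that binds AU-rich mRNA and speeds its decay, and read 389.3 and 415.1 on day 2 and 724.3 and 603.0 on day 6 (0.70 ± 0.146). Its dimmer probe set pointed the same way, at 0.43. The predicted gene Gm6958 read 136.2 and 199.1 and then 298.8 and 354.2 (0.92 ± 0.194), but its other probe set stood at 0.04.

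Pik3r2, a regulatory subunit of phosphoinositide 3-kinase, read 21.1 and 66.0 on day 2 and 110.6 and 123.4 on day 6 (1.27 ± 0.309). Its change was 0.70 without day 2 replicate 1 and 1.84 without day 2 replicate 2. Gtpbp6, a GTP-binding protein, read 35.8 and 24.6 on day 2 and 78.7 and 103.3 on day 6 (1.21 ± 0.276). Both are dim on day 2, and their changes were 0.78 and 0.72 with a pseudocount of 64 and 1.61 and 1.57 with a pseudocount of 1. The phosphoinositide-binding Golgi protein Plekha3 read 94.9 and 79.8 and then 159.3 and 153.9 (0.74 ± 0.160), with a second probe set at 0.08. The small GTPase Rab43 read 80.6 and 87.5 and then 146.1 and 146.5 (0.70 ± 0.154), while its second probe set stood at -0.36. Frmd4b, Ufsp1, Tmem33 and Setd3, the last an actin methyltransferase, had changes of 0.65 ± 0.152, 0.73 ± 0.174, 0.66 ± 0.161 and 0.63 ± 0.154, with day 6 signals of 150.1 to 364.5. The other probe sets of Tmem33 stood at 0.03 and 0.59, so that for Rab43, Plekha3, Gm6958 and Tmem33 the probe sets of the gene disagreed. Iglv1, a variable segment of the immunoglobulin λ chain, read 120.2 and 112.7 on day 2, 59.3 and 79.9 on day 3 and 239.9 and 217.7 on day 6 (0.89 ± 0.208). It was the only one of the 12 higher genes whose day 3 mean lay below that of day 2. On genistein the changes were 0.36 for Zfp36l1, 0.50 for Frmd4b, 0.38 for Iglv1, 0.29 for Plekha3, 0.19 for Tmem33 and 0.09 for Ufsp1. They were -0.66 for Pik3r2, -1.03 for Gtpbp6, -0.61 for Gm6958, -0.13 for Ctnnd1, -0.06 for Setd3 and -0.02 for Rab43.

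Among the lower genes Zdhhc6, Zmat5 and Zfp821 had the lowest mean signals on day 6, at 33.3, 16.9 and 24.5. Zdhhc6, an enzyme that attaches palmitate to proteins, read 231.3 and 135.8 on day 2, 10.6 and 12.6 on day 3 and 13.9 and 52.6 on day 6 (-2.10 ± 0.409). Zmat5, a zinc finger protein of the minor spliceosome, read 111.0 and 122.0 on day 2 and 16 and 17.8 on day 6 (-2.01 ± 0.439). The zinc finger protein Zfp821 read 58.8 and 72.4 on day 2, 65.8 and 49.8 on day 3 and 23.7 and 25.2 on day 6 (-1.01 ± 0.217). These 3 sizes are approximate, at -1.35, -1.16 and -0.55 with a pseudocount of 64. A second Zdhhc6 probe set stood at -0.36. On genistein Zmat5 also read 21.8 on the second array of day 3 and 23.8 on the second array of day 6, where the first arrays read 83.3 and 95.4, so low readings of that probe set were not particular to estradiol.

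The other lower genes read 33.1 or more on both day 6 arrays. Vipas39, which works in the sorting of endosomes, read 355.3 and 380.8 and then 159.6 and 182.5 (-1.04 ± 0.188), and its second probe set stood at -0.28. Tmem37, a transmembrane protein, read 125.4 and 130.7 and then 53.8 and 68.0 (-0.91 ± 0.166). Nudt2, a hydrolase of dinucleoside tetraphosphates, read 175.7 and 153.1 and then 77.0 and 82.1 (-0.91 ± 0.191). In all 3 the day 3 arrays lay near those of day 6. Lrba, a vesicle protein that sustains surface CTLA4 on T cells, read 273.8 and 324.6 and then 172.0 and 190.0 (-0.67 ± 0.142). Slfn2, a Schlafen protein that keeps T cells quiescent, read 564.9 and 439.8 on day 2, 490.6 and 524.1 on day 3 and 250.5 and 268.1 on day 6 (-0.90 ± 0.196). On genistein Slfn2 also stood lower on day 6, at 245.7 and 382.5 against 494.6 and 493.5 on day 2. Sephs2, which makes the selenium donor of selenoproteins, had a change of -0.91 ± 0.207, but its 2 other probe sets stood at 0.23 and -0.11. Gtf2ird1, a factor of the TFII-I family, had a change of -0.75 ± 0.173, and its second probe set stood at 0.12. Tpt1, the translationally controlled tumour protein, was among the brightest transcripts, at 6884 and 6115 on day 2 and 4156 and 4392 on day 6 (-0.60 ± 0.122). With quantile normalization the Tpt1 change was -0.16.

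Chac1, which degrades glutathione and is a textbook target of the stress factor Atf4, read 96.9 and 67.1 on day 2, 34.5 and 36.5 on day 3 and 37.7 and 33.1 on day 6 (-0.92 ± 0.187). With a pseudocount of 64 its change was -0.55. On genistein it read 54.8 to 63.3 on all 6 arrays. The promoter of Chac1 is shown because a match to the letters of the Atf4 element can be read in it. The window covers GRCm38.p6 chr2:119350992-119351291 on the plus strand, from 250 bases before to 50 after the start of transcription, from RefSeq, and the capitals mark the element TGATGNAA, which is read here on the opposite strand.
Chac1: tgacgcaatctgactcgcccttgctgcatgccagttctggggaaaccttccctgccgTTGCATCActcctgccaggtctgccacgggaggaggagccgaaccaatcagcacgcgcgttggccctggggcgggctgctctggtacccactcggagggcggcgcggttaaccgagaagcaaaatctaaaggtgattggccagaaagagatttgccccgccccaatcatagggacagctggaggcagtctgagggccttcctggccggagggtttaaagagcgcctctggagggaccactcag
The element, searched on both strands, was present in 4 of 23 promoter windows of the list of serine synthesis, Atf4 and unfolded protein response genes and in 3.97% of 32851 windows of all genes. The genes of that list showed no common direction. Of 23 measured genes, Chac1 among them, 5 lay above and 5 below on both day 6 arrays, with a median of -0.05. Of all genes 20.4% lay above and 25.9% below. Atf4 itself read 386.4 and 498.5 and then 381.7 and 438.3, and the Atf4 targets Psat1 and Shmt2, chosen after their values were seen, stood at 0.26 and 0.27. The brightest member, the chaperone Hspa5, read 1748 and 1539 and then 1215 and 1352 (-0.35 ± 0.191). The palindromic estrogen response element (GGTCA, 3 bases of any kind, then TGACC) was in 0 of 33 promoter windows of the 23 named genes that could be matched, and in 23 windows (0.07%) of all genes. These are matches of letters and say nothing of binding.

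**Figure D1:**
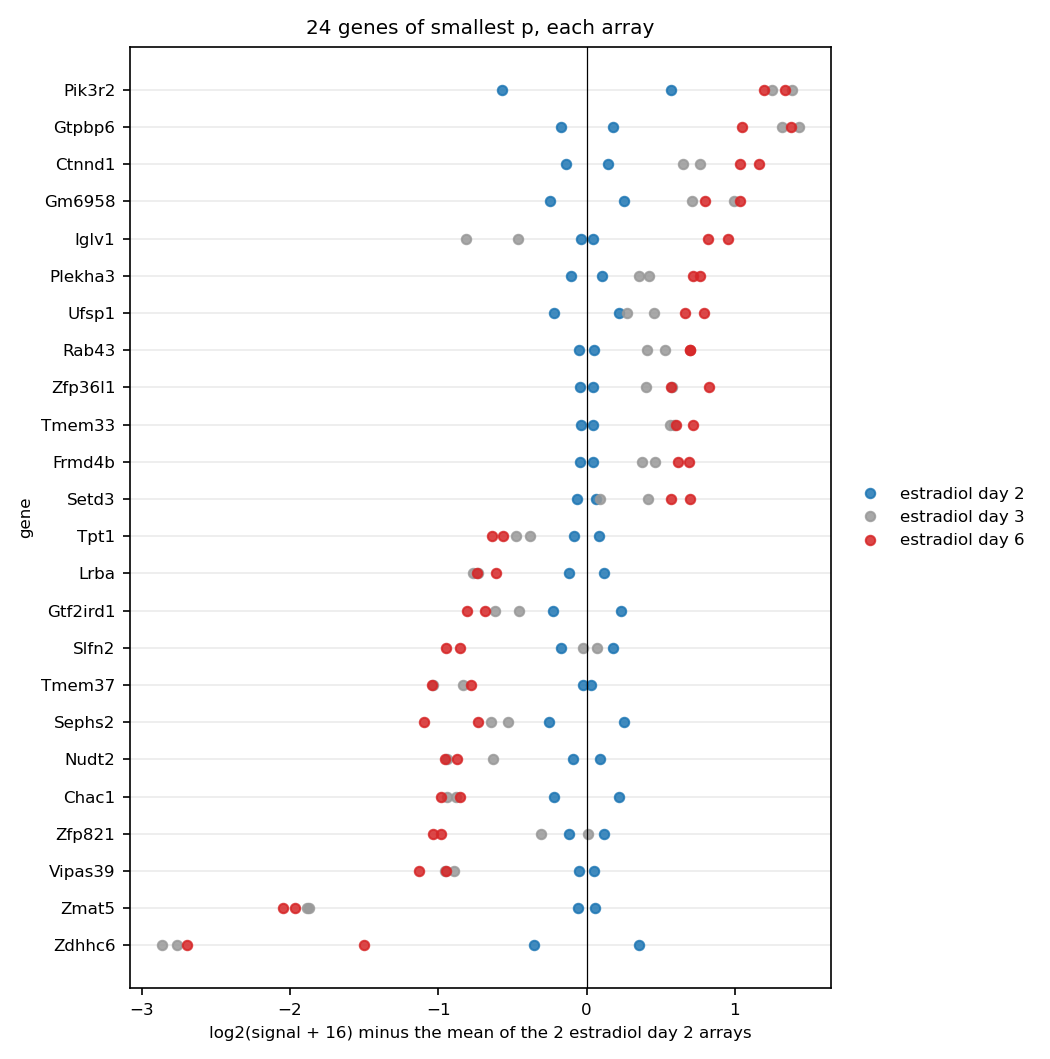
Levels of the 24 named genes on the estradiol arrays, as log2(signal + 16) minus the mean of the 2 day 2 arrays, with a point for each array of day 2, day 3 and day 6. Day 6 lies outside day 2 for every gene, which the choice of genes by small p favours. The day 3 mean lay between for 17 genes, beyond day 6 for 5 and beyond day 2, on the far side from day 6, for 2, Iglv1 and Slfn2.

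The day 3 arrays, which took no part in the contrast, correlated at 0.980 to 0.984 with those of day 6 and at 0.963 to 0.969 with those of day 2. The day 2 arrays correlated at 0.956 with each other. Of the 3798 genes whose day 2 and day 6 arrays did not overlap, the day 3 mean lay between both in 2275, beyond day 6 in 1048 and beyond day 2 in 475. It was nearer to day 6 in 2437. Both day 3 arrays had been deposited at about 2 times the common scale (2.00 and 2.23), and the day 2 arrays varied more than those of day 3, so the order of the days rests on arrays that also differ in these respects, whose part was not tested.

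Genes of cortical thymic epithelium, the cells that support early thymocytes and positive selection, stood higher on day 6 as a group. None of 16 measured genes was called by limma, and 6 were higher at an unadjusted p of 0.05. Both day 6 arrays lay above both day 2 arrays in 9 of 16 and below in 1, against 20.4% and 25.9% of all genes, and the median log2 change was 0.19, against -0.02 over all genes. The brightest members divided. The lysosomal protease Ctsl read 3024 and 2748 and then 2858 and 2738, the thymus-specific protease Prss16 read 3016 and 2916 and then 2845 and 2726, and the thymocyte-attracting chemokine Ccl25 read 2444 and 2037 and then 2283 and 2243. These 3 differed by -0.04 ± 0.104, -0.09 ± 0.125 and 0.02 ± 0.122. The fourth in brightness, Tbata, a gene of thymic epithelium, read 1930 and 1679 on day 2 and 2412 and 2263 on day 6 (0.37 ± 0.131, limma adjusted p = 0.378).

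Other members are given here that were chosen after their values were seen. Il7, the cytokine on which early thymocytes depend, read 109.5 and 91.6 on day 2, 133.6 and 154.7 on day 3 and 171.7 and 175.8 on day 6 (0.71 ± 0.173, limma adjusted p = 0.299). On genistein the change of Il7 was -0.31. Ly75, the endocytic receptor CD205, read 122.5 and 95.6 and then 197.7 and 148.9 (0.59 ± 0.250), and Enpep, the cortical epithelial antigen Ly51, read 316.9 and 299.9 and then 417.0 and 483.1 (0.52 ± 0.183). Pax1, a transcription factor of the thymic rudiment, read 446.8 and 413.9 and then 572.0 and 635.4 (0.47 ± 0.163), and keratin Krt8 read 1115 and 999 and then 1342 and 1318 (0.33 ± 0.126). Their limma adjusted p ran from 0.371 to 0.439. Foxn1, the master factor of thymic epithelium, overlapped between days, at 107.7 and 98.2 and then 94.6 and 105.8. On genistein the list had a median of 0.09, with 5 of 16 genes above and 3 below, beside 15.5% and 14.9% of all genes. The difference between both arms passed for no gene.

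On day 3 the members differed among themselves. Il7 was already at 133.6 and 154.7, while Pax1 read 358.8 and 430.7 and Krt8 read 937 and 1043, at or below day 2. With quantile normalization 13 of 16 genes lay above and 0 below, with a median of 0.26, beside 19.8% and 25.2% of all genes under that setting. For markers of medullary epithelium the counts ran the other way. Of 15 measured 1 lay above and 6 below, beside 20.4% and 25.9% of all genes at the common trimmed mean. Their median was -0.07, which was -0.22 without day 2 replicate 2 and -0.02 without day 6 replicate 1. The brightest, the protease Ctss, read 951 and 931 and then 740 and 762 (-0.32 ± 0.136), the epithelial adhesion molecule Epcam stood at -0.32 ± 0.197, keratin Krt5 at 0.17 ± 0.173 and the lymphotoxin gene Ltb, which lymphocytes also express, at 0.54 ± 0.211. Aire, which drives tissue antigens in the medulla, read 88.1 and 92.9 and then 79.6 and 101.3.

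The promoters of Pax1 and Enpep are shown because both genes stood higher and each holds the core of the motif bound by Foxn1, a factor named among the list's genes above. They come from RefSeq on GRCm38.p6, at chr2:147364744-147365043 on the plus strand and at chr3:129332700-129332999 on the minus strand. Capitals mark the core GACGC.
Pax1: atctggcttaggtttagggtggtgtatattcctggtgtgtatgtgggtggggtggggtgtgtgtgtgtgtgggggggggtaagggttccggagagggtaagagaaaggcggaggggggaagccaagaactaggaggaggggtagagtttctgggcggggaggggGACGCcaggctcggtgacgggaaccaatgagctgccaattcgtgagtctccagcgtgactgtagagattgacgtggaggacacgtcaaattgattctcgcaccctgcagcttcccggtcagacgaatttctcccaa
Enpep: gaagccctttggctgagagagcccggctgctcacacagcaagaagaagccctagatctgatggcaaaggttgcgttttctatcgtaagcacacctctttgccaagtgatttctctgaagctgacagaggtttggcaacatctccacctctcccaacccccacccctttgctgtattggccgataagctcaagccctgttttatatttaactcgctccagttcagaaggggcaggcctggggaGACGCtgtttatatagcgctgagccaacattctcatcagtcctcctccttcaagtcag
A core this short is common. Searched on both strands, it was in 5 of 15 windows of the 12 cortical epithelial genes that matched the promoter table and in 27.2% of all windows. It was in 13 of 19 windows of the nuclear-retained and splicing list described next and in 13 of 29 of ribosomal protein genes.

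Transcripts that stay in the nucleus or keep introns, and regulators of splicing, lay above in 11 of 17 measured genes and below in 0. Of all genes 20.4% lay above and 25.9% below. Limma called 0 of the 17, and 5 were higher at an unadjusted p of 0.05. The list was drawn up around genes already seen to differ with estradiol in these arrays, so its direction is not independent evidence. Its median was 0.22 with estradiol and -0.03 with genistein, where 2 genes lay above and 2 below, beside 15.5% and 14.9% of all genes. The noncoding RNA Malat1, which sits in nuclear speckles, read 317.3 and 208.5 on day 2, 891.1 and 850.4 on day 3 and 739.6 and 642.7 on day 6 (1.37 ± 0.422, limma adjusted p = 0.346). Its 4 other probe sets stood at 0.65, 0.66, 1.43 and 0.11. Malat1, Neat1 and Fxr2 are given with their values known. Neat1, the noncoding scaffold of paraspeckles, read 362.1 and 326.7 and then 608.2 and 556.7 (0.73 ± 0.300), and Fxr2, a paralogue of the fragile X RNA-binding protein, read 50.1 and 85.7 and then 168.1 and 144.8 (1.07 ± 0.382).

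The brightest members of the list stood within 0.2 log2 units of day 2. The splicing factor Srsf5 stood at 0.19 ± 0.131, the helicase Ddx5 at 0.11 ± 0.117, the glycosyltransferase Ogt at 0.16 ± 0.179 and Rsrp1 at -0.01 ± 0.274. Rsrp1 read 677.9 and 1553 on the 2 day 2 arrays, a gap that covered both day 6 values of 1036 and 1011. A dimmer probe set of Nktr, a cyclophilin of natural killer cells, had the smallest p of any single-gene probe set, and was named after its values were seen. It read 56.2 and 43.7 on day 2, 167.6 and 171.3 on day 3 and 120.6 and 156.8 on day 6 (1.23 ± 0.198, limma adjusted p = 0.249), and between 28.2 and 41.8 on the 6 genistein arrays. The brighter Nktr probe set stood at 0.34 ± 0.182.

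**Figure D2:**
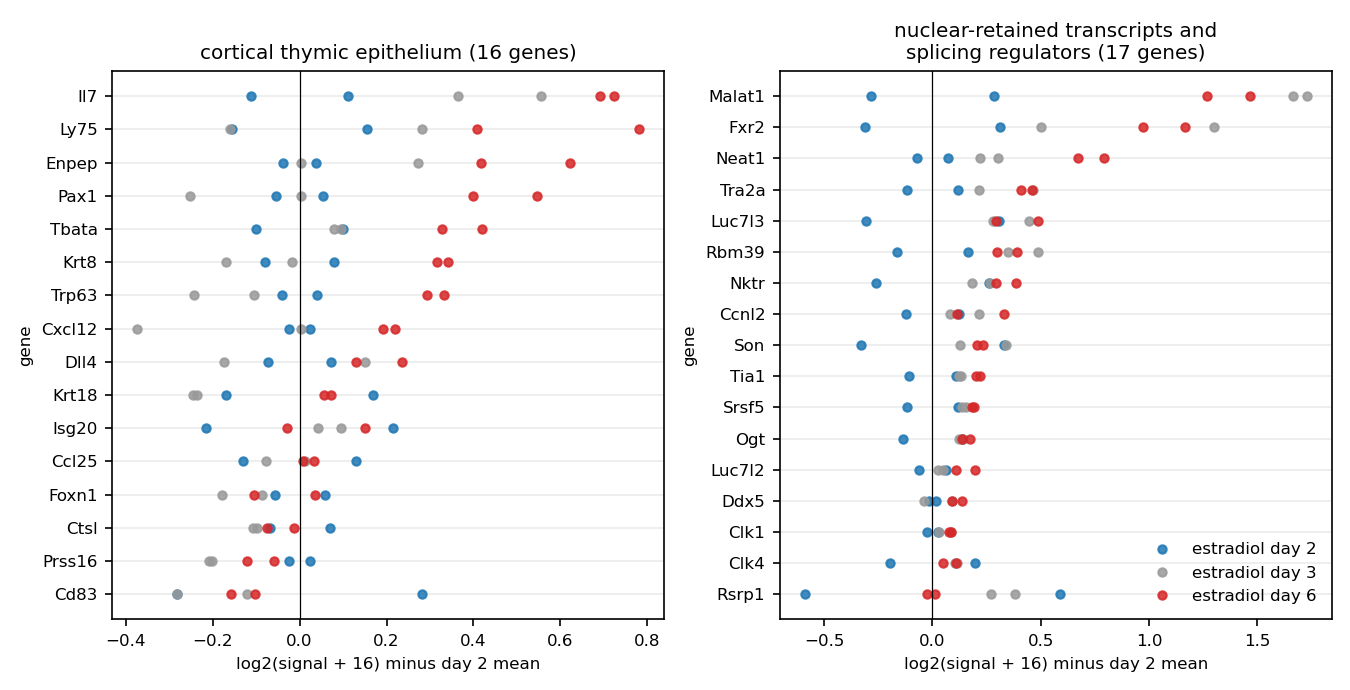
Levels of the cortical epithelial genes (left, 16 genes) and of the nuclear-retained and splicing genes (right, 17 genes) on each estradiol array, as log2(signal + 16) minus the day 2 mean. Red day 6 points lie above both blue day 2 points in 9 of 16 genes on the left and 11 of 17 on the right, beside 20.4% of all genes. Grey points are day 3.

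Ribosomal protein genes gave the longest run in the other direction. Both day 6 arrays lay below both day 2 arrays in 19 of 27 and above in 0, against 25.9% and 20.4% of all genes, with a median of -0.28. Limma called 0, and 15 were lower at an unadjusted p of 0.05. The brightest, Rpl41, read 6552 and 5017 on day 2 and 4234 and 4157 on day 6 (-0.45 ± 0.143), and Rps14 read 4727 and 4225 and then 3585 and 3138 (-0.41 ± 0.131). Rpsa and Rplp2 stood at -0.36 ± 0.157 and -0.30. On genistein the median was -0.02. With estradiol it was -0.18 without day 2 replicate 1.

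This run went with brightness. Of the 200 brightest probe sets of any kind, 196 (98.0%) were lower on day 6 of estradiol, with a median of -0.27, while on genistein the median was -0.02. The highest scaled signal of an array was 6884 and 6115 on day 2, 4974 and 4923 on day 3 and 4678 and 4587 on day 6 of estradiol, and 5625 to 7481 on the genistein arrays. Among the 27 ribosomal genes 23 were represented by one of the 500 brightest probe sets. With quantile normalization, which gives every array the same distribution, the ribosomal median became -0.00059, with 4 genes above and 4 below. The lower ribosomal and Tpt1 signals on day 6 therefore held with a common trimmed mean and not with a common distribution, and whether the top of the range or the ribosomal RNAs differed cannot be told apart in these data.

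**Figure D3:**
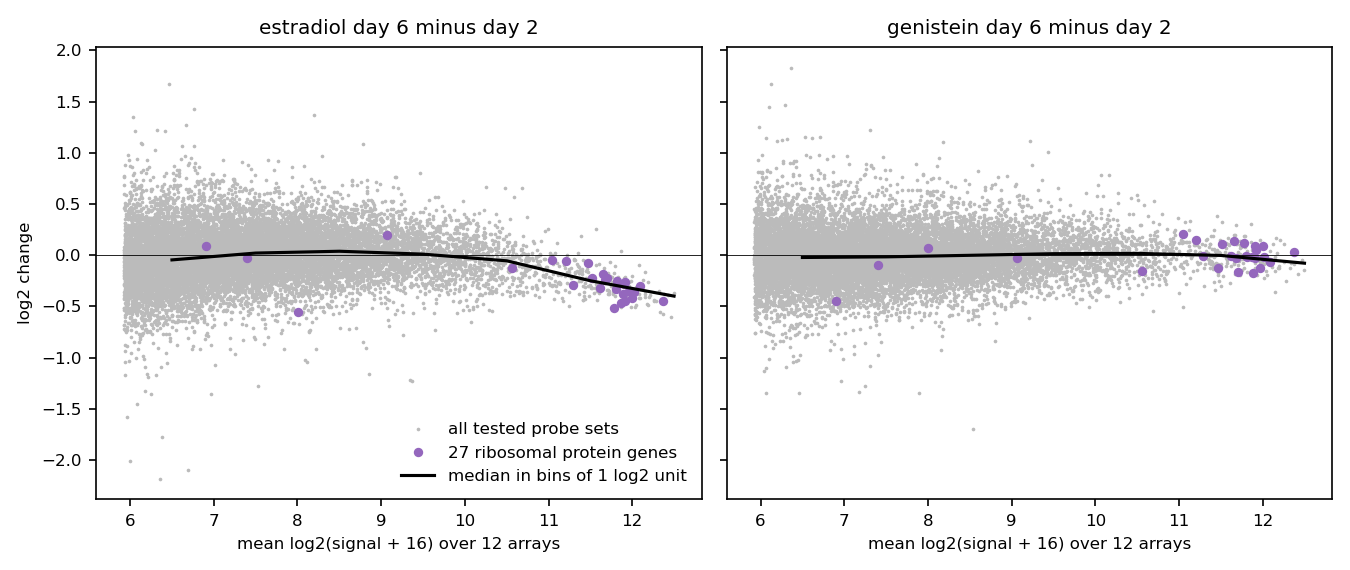
Log2 change from day 2 to day 6 of each tested probe set against its mean log2(signal + 16) over the 12 treated arrays, for estradiol (left) and genistein (right), with the 27 ribosomal protein genes in purple and the median in bins of 1 log2 unit as a line. The line lies below 0 at the bright end with estradiol, where the ribosomal genes lie, and stays near 0 with genistein.

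Genes of oxidative phosphorylation, the respiratory chain and ATP synthase of mitochondria, were lower more often than higher. The size rested on day 2 replicate 1, the estradiol array with the high Gapdh ratio. Of 39 measured, 15 lay below and 4 above, with a median of -0.13, and with quantile normalization the counts were again 15 and 4, with a median of -0.11. The share below, 15 of 39, stands beside 25.9% of all genes. Without day 2 replicate 1 the median was -0.05, with 17 changes positive and 22 negative, and with the Gapdh ratio as a term it was -0.02, with 16 and 23. The brightest members, Cox6a1, Cox7a2, Atp5a1 and Cox6c, stood at -0.15, -0.34, -0.09 and -0.09. Sdhb, the iron-sulphur subunit of succinate dehydrogenase and the member lowest on day 6 relative to day 2, read 1299 and 974 and then 807 and 738 (-0.53 ± 0.154, limma adjusted p = 0.311). It was named after its values were seen, and the other subunits of the same enzyme, Sdha, Sdhc and Sdhd, stood at 0.12, 0.05 and 0.16. On genistein the list had a median of 0.05. Proteasome subunits, which degrade tagged proteins, lay below in 12 of 30 and above in 4, with a median of -0.09. Of all genes 25.9% lay below and 20.4% above. Without day 2 replicate 1 the proteasome median was 0.03, and with the Gapdh ratio as a term -0.01, so the proteasome list had no settled direction.

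Immunoglobulin and plasma cell genes split. Of 9 measured, 4 lay above and 4 below. Of all genes 20.4% lay above and 25.9% below, which is also the background for the B lymphocyte counts below. The joining chain Jchain read 341.8 and 266.0 on day 2, 203.6 and 186.9 on day 3 and 490.5 and 401.5 on day 6 (0.53 ± 0.185), and followed Iglv1 in its low day 3 values. Ighm, the μ heavy chain, read 2476 and 2303, then 2024 and 2111, then 2622 and 2572 (0.12 ± 0.160). The α heavy chain Igha went the other way, at 234.0 and 230.5 and then 110.9 and 192.2 (-0.61 ± 0.270), and Xbp1, a factor of secretory cells, stood at -0.09 ± 0.118. On genistein 5 of the 9 lay above and 0 below, beside 15.5% and 14.9% of all genes, with a median of 0.29. There Jchain stood at 0.87 ± 0.185, Igha at 0.63 ± 0.270 and Ighm at 0.13 ± 0.160. Markers of B lymphocytes lay above in 1 of 11 and below in 4, with a median of -0.14 that was -0.07 without day 2 replicate 2 and -0.03 without day 6 replicate 1, and their summed signal over the 16 genes on the array was 1390 and 1422 on day 2 and 1124 and 1354 on day 6.

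Macrophage genes lay above in 9 of 19 and below in 4, against 20.4% and 25.9% of all genes, and the counts were the same with quantile normalization. Limma called 0, and 2 were higher and 2 lower at an unadjusted p of 0.05. Their median of 0.12 was 0.07 without day 2 replicate 1, 0.05 without day 6 replicate 2 and 0.01 with the Gapdh ratio as a term, and on genistein it was 0.14. The lysosomal protease Ctsb stood at 0.27 ± 0.128, the adhesion molecule Vcam1 at 0.10 ± 0.140 and the lysozyme gene Lyz2 at -0.33 ± 0.137. Mertk, the receptor for dying cells, and Slc40a1, the iron exporter, named after their values were seen, stood at 0.48 ± 0.196 and 0.41 ± 0.153. The summed signal of the 22 macrophage genes was 7908 and 7509 on day 2 and 7787 and 8427 on day 6. Neutrophil genes lay above in 0 of 9 and below in 4, with a median of -0.14, and dendritic cell genes above in 4 of 15 and below in 4, with a median of -0.03. Chemokines and their receptors lay below in 7 of 16 and above in 3, with a median of -0.15 with estradiol and 0.24 with genistein. The estradiol median was -0.03 without day 2 replicate 1 and -0.04 without day 6 replicate 1. The brightest stood at 0.02 for Ccl25, 0.21 for the CXCR4 ligand Cxcl12, -0.22 for the CCL25 receptor Ccr9 and 0.15 for Cxcr4. The monocyte and T cell attractants Ccl22, Ccl8 and Ccl2, chosen after their values were seen, stood at -0.61 ± 0.166, -0.56 ± 0.218 and -0.45 ± 0.241.

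For adipocyte genes the counts ran in opposite directions in both arms, and the difference between arms was called for none of them. With estradiol 5 of 12 lay below and 1 above, with a median of -0.17, and with genistein 8 lay above and 1 below, with a median of 0.33. Of all genes 20.4% lay above and 25.9% below with estradiol, and 15.5% and 14.9% with genistein. The estradiol median was -0.07 without day 2 replicate 1. The brightest, Fabp4, Scd1, Lpl and Car3, stood at -0.23, -0.09, -0.15 and 0.08 with estradiol. Ucp1, the uncoupling protein of brown fat, read 543.9 and 190.5 on day 2, 73.1 and 214.9 on day 3 and 137.6 and 20.7 on day 6 (-2.18 ± 0.720, limma adjusted p = 0.362), and its arrays differed widely within each day. It was named after its values were seen. The summed signal of the 17 adipocyte genes on the array was 5121 and 4118 on day 2 and 3928 and 3798 on day 6. Mast cell and eosinophil genes were mostly dim, with 5 of 14 on the array measured. Of these 0 lay above and 2 below, with 2 changes positive, a range of -1.17 to 0.47 and a median of -0.43. That median was -0.04 without day 2 replicate 2, and with quantile normalization 2 genes lay above and 2 below. Ms4a2, the β chain of the IgE receptor and the lowest of them, read 68.1 and 64.2 on day 2 and 31.5 and 12.2 on day 6 (-1.17 ± 0.272, limma adjusted p = 0.299). It was named after its values were seen.

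Thymocyte lists had medians from -0.14 to 0.05. Their counts stand beside 20.4% of all genes above and 25.9% below with estradiol. Markers of CD4 CD8 double-positive cells lay above in 3 of 15 and below in 4, with a median of -0.04, or 0.07 with quantile normalization. The brightest, the template-independent polymerase Dntt, stood at -0.37, and Satb1, Rag1 and Rmnd5a at -0.06, -0.19 and -0.04. Early thymocyte genes lay above in 6 of 16 and below in 4, with a median of 0.05, and that median was -0.03 without day 6 replicate 2. Their brightest members, the T lineage factor Bcl11b, the receptors Notch1 and Notch3 and the pre-T cell receptor chain Ptcra, stood at 0.06, 0.42, 0.41 and 0.12. The Notch targets Nrarp, Hes1 and Dtx1, chosen after their values were seen, stood at -0.38, -0.13 and 0.15, so they had no common direction. Genes of mature single-positive T cells lay above in 2 of 13 and below in 4, with a median of -0.13 and 3 positive changes. Among their brightest members Cd28, Cd5, Cd6 and Il7r stood at 0.04, -0.16, -0.23 and -0.09. Early response genes induced by selection signals lay above in 2 of 15 and below in 6, with a median of -0.14 and 3 positive changes, and the median was -0.08 without day 2 replicate 2. Their brightest members Nfkbia, Btg2, Egr1 and Nr4a1 stood at -0.32, -0.39, 0.04 and -0.16. Genes of mitosis lay above in 6 of 26 and below in 6, and genes of DNA replication above in 8 of 29 and below in 8, with medians of 0.02 and -0.02. Over the same days of genistein 0 mitosis genes lay above and 10 below, beside 15.5% and 14.9% of all genes, with a median of -0.16. Cholesterol synthesis genes lay above in 1 of 16 and below in 3. Estrogen-responsive genes lay above in 2 of 14 and below in 4, with a median of -0.10.

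MHC class II genes, which present antigen to CD4 cells, lay above in 1 of 11 and below in 3 with estradiol, where 20.4% and 25.9% of all genes did, with a median of 0.00, and above in 9 and below in 0 with genistein, with a median of 0.31. Interferon-responsive genes lay above in 4 of 18 and below in 1 with estradiol, where the median was 0.10 and, without day 6 replicate 2, -0.06, and above in 12 and below in 1 with genistein, where it was 0.32. The background for genistein was 15.5% of genes above and 14.9% below. The difference between both arms was not called for any gene of these lists.

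**Figure D4:**
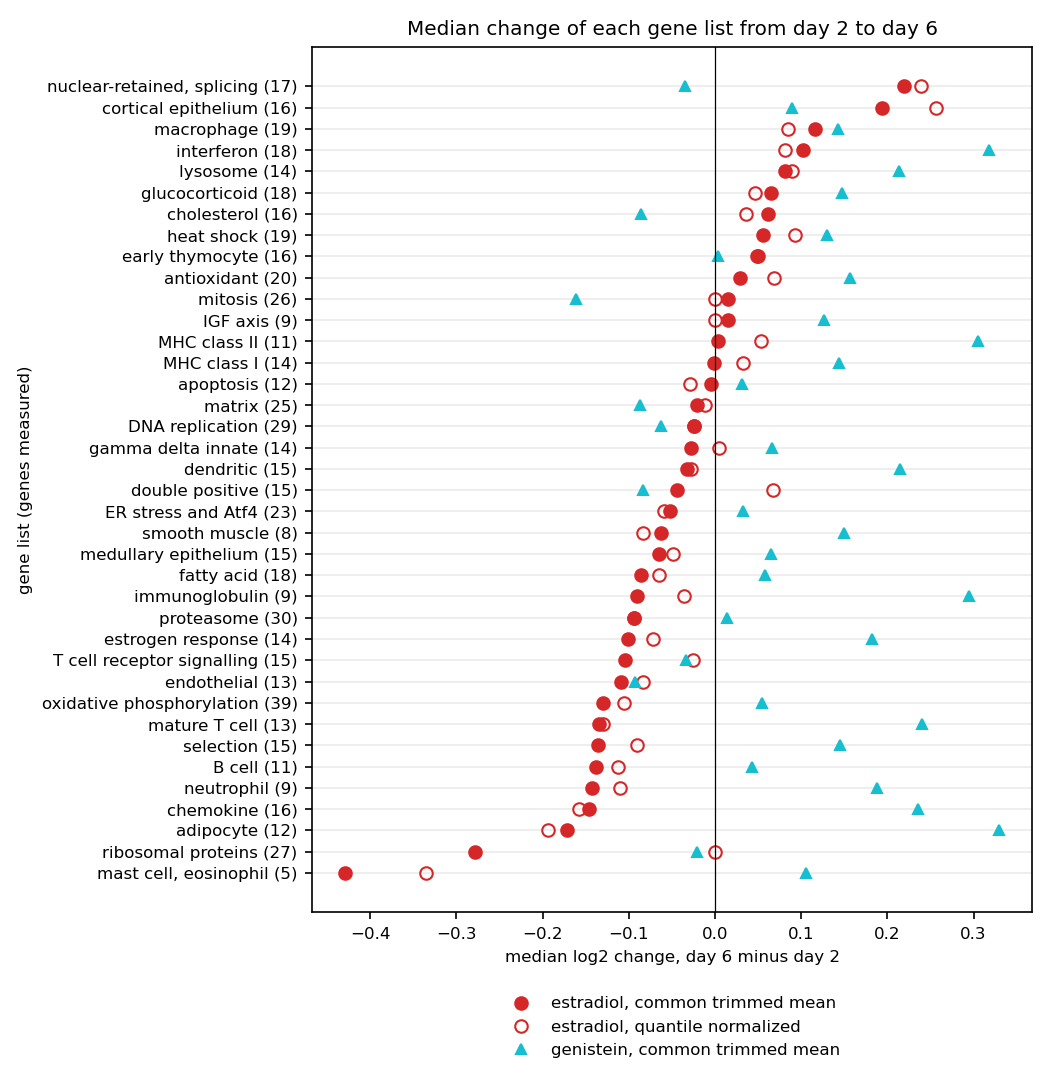
Median log2 change from day 2 to day 6 of each gene list with at least 5 measured genes (number in brackets), for estradiol at a common trimmed mean (filled), estradiol after quantile normalization (open) and genistein (triangles). Nuclear-retained and cortical epithelial genes have the highest estradiol medians at 0.22 and 0.19, and the ribosomal median of -0.28 moves to about 0 with quantile normalization.

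The genes with the smallest p for a difference between both arms were Gtpbp6, Gm6958, Tmem266, Myo18a and Uck2, none of which passed (limma adjusted p = 0.578 for each). Gtpbp6 read 112.8 and 86.5 on day 2 of genistein and 28.7 and 55.1 on day 6, the reverse of its order with estradiol, and the changes differed by 2.24 ± 0.390. The unconventional myosin Myo18a read 450.2 and 580.3 and then 775.4 and 787.9 with estradiol, and 622.2 and 669.8 and then 435.1 and 540.0 with genistein (difference 1.00 ± 0.220). With the Gapdh ratio as a term the difference was 0.64 for Myo18a, and 0.996 in place of 1.52 for Gm6958. The channel-like protein Tmem266 read 55.3 and 67.0 and then 43.8 and 22.3 with estradiol, and 39.2 and 37.4 and then 89.4 and 70.2 with genistein (difference -1.50 ± 0.314). Uck2, a kinase that salvages uridine and cytidine, stood at 0.23 ± 0.168 with estradiol, at 452.6 and 408.0 and then 481.2 and 534.8. On genistein it read 554.6 and 630.7 and then 322.8 and 324.7 (difference 1.07 ± 0.238). A dimmer Uck2 probe set stood at 0.01 with estradiol and 0.04 with genistein (difference -0.03 ± 0.232), so the probe sets of this gene disagreed.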

How the data were processed

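Thymus RNA of pools of 3 mice was measured on 14 Affymetrix arrays. The deposited values are MAS5 5.0 signal intensity per probe set, per the submitters' processing notes. The 2%-trimmed mean was 150 for 11 columns, but 223.4 for estradiol day 2 replicate 2 and 300.3 and 334.6 for the estradiol day 3 pair, so each array was scaled to 150. Of 22690 probe sets 64 controls were removed, and 20380 of the rest carried 1 gene symbol, 691 several and 1555 none. Values were taken as log2(signal + 16), and the lowest 40% by mean were left out. limma 3.58.1 in R 4.3.3 fitted 6 group means to the 12 treated arrays (eBayes with an intensity trend, Benjamini-Hochberg adjustment over 13575 probe sets, call at an adjusted p under 0.05), with 6 residual degrees of freedom. The procedure was tested on simulated data. A p-value speaks about pools of mice of 1 study.

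Fold changes are on the log2(signal + 16) scale and understate those of dim genes. Errors are SE from limma. "Above" and "below" count genes whose 2 day 6 arrays both lie beyond both day 2 arrays. Named were the called genes, filled to 12 in each direction with the smallest p, the 5 smallest p for the difference between arms, up to 4 of the brightest members of each list described, and Esr1, Esr2, Pgr, Rag1, Cd4 and Cd8a. Genes named beyond these were picked with their values known. The comparison and the lists were chosen with earlier results of these data known. Promoter sequences are from RefSeq (GRCm38.p6), matched by symbol. Alternatives were pseudocounts of 1 and 64, other filters, quantile normalization, median centring, the values as deposited, no trend, a replicate block, other sets of arrays, the scale or the Gapdh ratio as a term, and each array left out. Plots used matplotlib 3.10.9 (python 3.11.15). Replicate numbers are not said to pair arrays, and same-numbered day 2 and day 6 arrays had deviations that correlated at 0.12 with estradiol and -0.17 with genistein.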

Additional observations from a re-analysis of the deposited data

Results flagged for a closer look

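For 7 named genes both day 6 arrays lay on one side of both day 2 arrays with estradiol and on the other side with genistein. The difference of the log2 changes, estradiol minus genistein, was tested in the same limma fit and passed for none of them (adjusted p = 0.578 for each). It was 2.24 for Gtpbp6, 1.93 for Pik3r2, 1.52 for Gm6958, 1.07 for Uck2 and 1.00 for Myo18a, which stood higher on day 6 of estradiol and lower on day 6 of genistein. It was -1.50 for Tmem266 and -1.05 for Chac1, which stood lower with estradiol and higher with genistein. Dimmer probe sets of Uck2 and Gm6958 had differences of -0.03 and 0.96. The genes were picked for small p in the estradiol contrast or in the difference between arms, and a small p for that difference favours opposite directions. Of all genes 20.4% lay above and 25.9% below with estradiol, and 15.5% and 14.9% with genistein. The share of all genes with opposite directions was not counted, and all 7 genes are given as values only.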

How the results depend on the processing

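Depth here is signal over background, and dim genes depend on the pseudocount. The count of called probe sets for estradiol was 0 in every alternative except these. On the values as deposited, where the median of all probe sets shifted by -0.27, it was 56, all lower, among them Zdhhc6, Zmat5, Tpt1, Vipas39, Tmem37, Chac1, Nudt2, Slfn2, Sephs2 and Ms4a2. With the scale of deposit as a block it was 2 (Rab18 and Ctr9, both higher). Leaving out 1 array at a time gave 0 to 2 calls for estradiol, with 2 without day 2 replicate 1 (Nubp1 and Arpp21) and 2 without day 2 replicate 2 (Rab18 and Ctr9). For genistein this gave 0 to 5, with 2 and 5 without day 2 replicate 1 or 2 and 2 and 1 without day 6 replicate 1 or 2. For the difference between arms it gave 0 to 1, with 1 without estradiol day 2 replicate 2 and 1 without genistein day 6 replicate 1. That count was 1 with the scale of deposit as a block and 1 when the 3 arrays of another scale were left out. The replicate block gave 0 calls in all 3 comparisons, with 1501, 984 and 1065 probe sets at an unadjusted p of 0.05. None of the 24 genes of smallest p changed direction in an alternative that gave it a value, nor did the 5 differences between arms, and other named genes were not followed across alternatives. The medians of the cortical epithelial and nuclear-retained lists were positive except on the deposited values, at -0.06 for both, and the ribosomal median was -0.38 to -0.18 with 1 array left out.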
